A study of Mus musculus with 16 samples.

Results

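The transcripts of 9 components of the sonic hedgehog (Shh) pathway were followed in mouse neural stem cells (NSC) depleted of the long non-coding RNA *RUS*. The components are the ligand *Shh*, the receptor *Ptch1*, the co-receptor *Boc*, the ligand trap *Hhip*, the transducer *Smo*, the inhibitor *Sufu* and the transcription factors *Gli1*, *Gli2* and *Gli3*. They are known parts of the pathway, taken by name with earlier results of these data known, and all 9 were found among the 55471 genes listed for each day. The cells came from cortices of C57BL/6 embryos at embryonic day 15 to 16, pooled from animals of mixed sex. NSC were grown with bFGF and transduced by lentivirus with a scrambled shRNA (shRNA CON) or an shRNA against *RUS* (shRNA RUS). RNA was taken on day 5 after seeding, when the medium was changed to start differentiation, and on day 7. Each shRNA was measured by polyA RNA-seq in 4 libraries on each day, 16 libraries in all. A single shRNA against *RUS* was used, and the control cells carried a vector and an shRNA too. Nothing in the labels says whether the replicates came from separate animals, so that p-values measure the spread between these libraries.

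Shh binds Ptch1 and thereby releases Smo, which enters the primary cilium and starts the signal. The signal frees Gli2 and Gli3 from Sufu and from proteolytic processing into repressors, and Gli1, which is itself a target gene, amplifies the output. *Gli1*, *Ptch1* and *Hhip* are classic target genes of the pathway, so their transcripts serve as a readout of signaling, and *Ptch1* and *Hhip* feed back on the ligand. In the embryonic forebrain Shh patterns the ventral side, and in the cortex it is known for its role in progenitor expansion and in the formation of interneurons and oligodendrocyte precursors.

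Expression is given as TPM, the abundance of a gene's transcripts relative to all transcripts of the library and corrected for their length, after scaling by the median ratio between the 16 libraries. The number of genes detected in a library lay between 25615 and 29126. The depth of the libraries is unknown, since TPM sum to the same total in each library. The transcript targeted by the shRNA, *Gm20754* (*RUS*), was near the limit of measurement. It stood at 0.24, 0.11, 0.18 and 0.16 TPM as deposited with shRNA CON on day 5 and at 0.05, 0, 0.12 and 0.32 TPM with shRNA RUS. On day 7 *Gm20754* had 0.70, 0.72, 0.26 and 0.54 TPM with shRNA CON and 0.54, 0.38, 0 and 0.04 TPM with shRNA RUS. The groups overlapped on both days, and the log2 fold changes of −0.40 on day 5 (adjusted p = 0.519) and −1.28 on day 7 (adjusted p = 0.114) did not pass the test, so that these libraries do not check the knockdown by themselves. The paper measured *RUS* by RT-qPCR for this experiment and reported that the shRNA lowered it, with an incomplete depletion. Replicate 4 of shRNA RUS on day 5 stood nearer to the controls than the other libraries of its group, at 15.9 on the first principal component of that day against 40.5 to 56.2. The markers of radial glia and NSC (*Sox2*, *Pax6*, *Nes*, *Vim*, *Fabp7*, *Slc1a3*, *Hes5*), summed, lay between 12460 and 14603 scaled TPM with shRNA CON and between 17732 and 21226 with shRNA RUS on day 5, and between 6798 and 7051 and between 7021 and 7679 on day 7. Most of this sum is *Vim* and *Fabp7*, with means of 9181 and 3617 scaled TPM with shRNA CON and of 13489 and 5150.4 with shRNA RUS on day 5. Of the 7 markers 3 rose (*Vim* 0.55, *Fabp7* 0.52, *Pax6* 0.25) and 2 fell (*Nes* −0.87, *Hes5* −0.67) on day 5, beside 14.8% of all genes higher and 17.9% lower. On day 7, 2 rose (*Pax6* 0.20, *Vim* 0.17) and 3 fell (*Nes* −1.19, *Hes5* −0.83, *Slc1a3* −0.15), beside 23.4% and 25.8%. Of 4 endothelial markers, *Cldn5* and *Cdh5* were at or near 0 and could not be tested, with group means of at most 0.0256 and 0.0437 scaled TPM, and *Pecam1* had at most 0.322, with log2 fold changes of 0.30 on day 5 (adjusted p = 0.440) and 0.38 on day 7 (adjusted p = 0.256). *Kdr* stood at 5.48 and 5.83 scaled TPM with shRNA CON on day 5 and day 7 and fell on both days (−0.91, adjusted p = 2.31e-04, and −1.30, adjusted p = 2.93e-06). The sum of the 4, nearly all of it *Kdr*, was 5.25 to 5.91 with shRNA CON and 2.76 to 3.70 with shRNA RUS on day 5, and 5.95 to 6.28 and 2.27 to 2.87 on day 7.

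The levels of the components spanned a wide range. With shRNA CON on day 5, *Smo* was the most abundant at 57.2 ± 2.8 scaled TPM (SD, n = 4), followed by *Ptch1* at 25.7 ± 2.8, *Boc* at 16.0 ± 0.20, *Sufu* at 11.0 ± 0.43, *Gli3* at 8.42 ± 0.29 and *Gli2* at 5.64 ± 0.52. *Shh* at 1.68 ± 0.12, *Gli1* at 1.22 ± 0.23 and *Hhip* at 0.241 ± 0.081 scaled TPM were the lowest. The libraries of no neighbours in this order overlapped. With shRNA RUS on day 5 the order changed for *Boc* and *Ptch1*, whose libraries overlapped. *Boc* at 18.7 ± 2.0 lay beside *Ptch1* at 17.3 ± 3.2, and libraries overlapped too for *Shh* and *Gli1* at 0.827 ± 0.15 and 0.548 ± 0.12. On day 7 with shRNA CON, *Ptch1* had come near to *Smo*, at 47.1 ± 1.4 against 58.8 ± 3.7, and *Shh* at 8.15 ± 0.81 lay above *Gli2* at 4.20 ± 0.29. *Boc*, *Gli3* and *Sufu* were then close, at 12.5 ± 0.73, 10.8 ± 0.65 and 10.5 ± 0.81, and the libraries of neighbours overlapped. On day 7 with shRNA RUS, *Gli2* at 10.0 ± 0.86 lay above *Shh* at 2.07 ± 0.24 and below *Gli3* at 12.2 ± 0.85, whose libraries overlapped those of *Sufu* at 13.6 ± 1.2. All 36 ranks of the components within the groups were the same with TPM as deposited. Scaling divides all genes of a library by the same factor, so this is no separate check of the order.

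**Figure D1:**
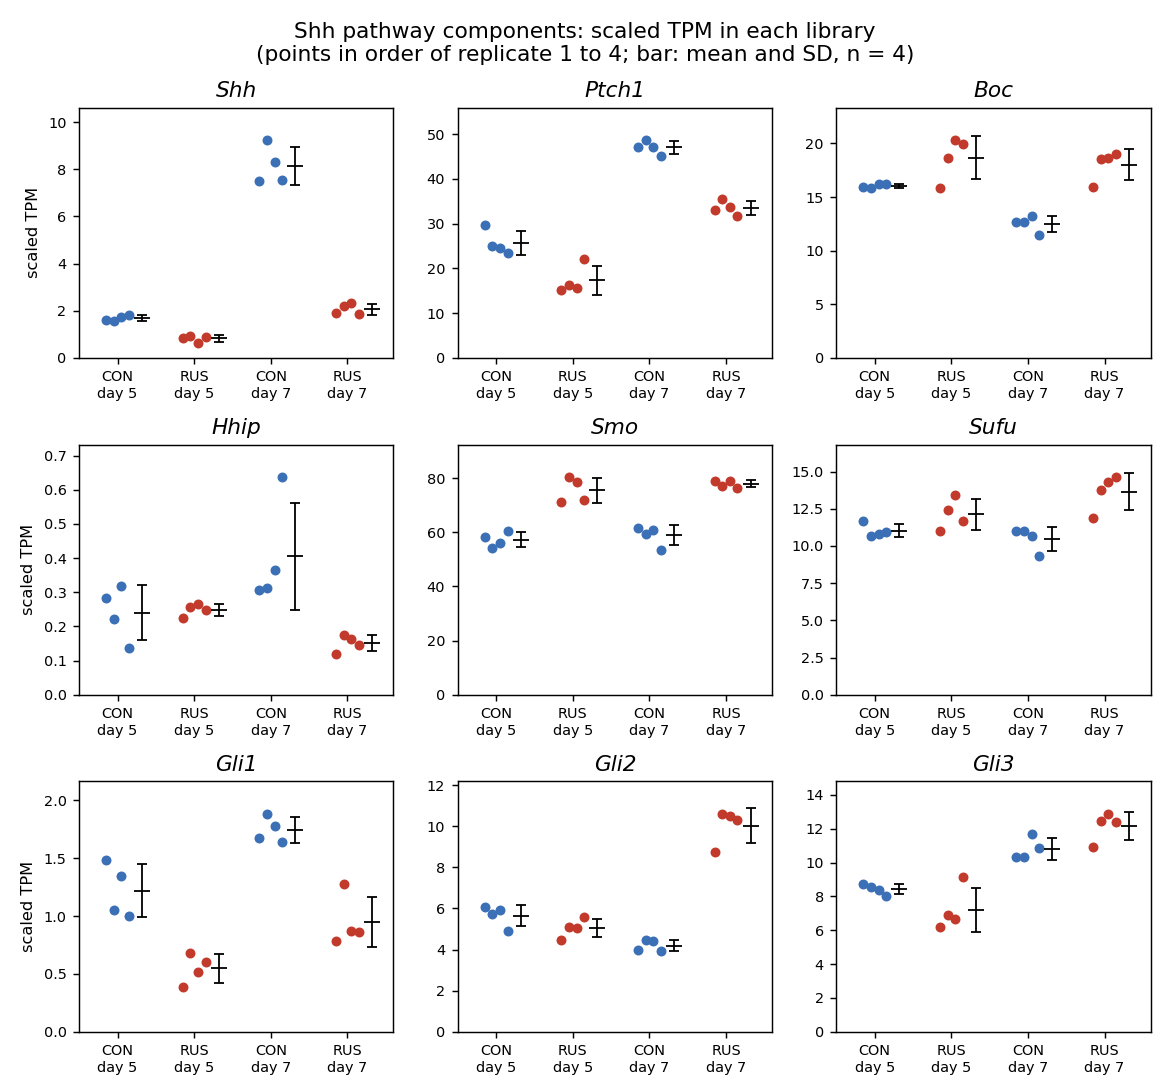
Scaled TPM (y axis, starting at 0) of each component in the 16 libraries, by shRNA and day (x axis). Points are libraries in order of replicate, and the bar beside them is the mean with the SD (n = 4). *Shh* stands at 7.51 to 9.23 with shRNA CON on day 7 and at 1.85 to 2.33 with shRNA RUS, while *Gli2* is highest with shRNA RUS on day 7, at 8.75 to 10.6.

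Each day was then tested for the effect of shRNA RUS. On day 5, *Shh*, *Gli1* and *Ptch1* fell and *Smo* rose. These are 3 of 9 components lower, where 17.9% of all genes tested were called lower, and 1 of 9 higher, where 14.8% were called higher. On day 7, *Shh*, *Hhip*, *Gli1* and *Ptch1* fell and *Gli2*, *Boc*, *Smo* and *Sufu* rose. These are 4 of 9 in each direction, beside 25.8% of all genes called lower and 23.4% called higher. The libraries of both shRNAs did not overlap for 4 of the 9 components on day 5, against 32.8% of all genes tested, and for 8 of the 9 on day 7, against 47% of all genes. The median log2 fold change of the components was −0.16 on day 5 and 0.18 on day 7, and that of all genes was −0.06 and −0.03. All 9 components passed the filter on low values.

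*Shh* (chr5:28456815-28467256, minus strand, GRCm38), which encodes the secreted ligand, showed the largest decrease among the components on day 7. It stood at 1.60, 1.56, 1.75 and 1.82 scaled TPM with shRNA CON on day 5 and at 0.852, 0.947, 0.613 and 0.895 with shRNA RUS. On day 7 *Shh* reached 7.51, 9.23, 8.31 and 7.55 scaled TPM with shRNA CON but 1.89, 2.21, 2.33 and 1.85 with shRNA RUS. Every library with shRNA RUS was below every control library of its day, and on day 7 the libraries with shRNA RUS were little above the day 5 controls. The log2 fold change was −0.95 (SE 0.158, adjusted p = 0.00180) on day 5, or 51.8% of the control level on the scale with 0.1 TPM added, and −1.92 (SE 0.108, adjusted p = 9.02e-07) on day 7, or 26.4%. With 1 TPM added in place of 0.1, the day 5 value of *Shh* was −0.54 (adjusted p = 0.00125). *9530036O11Rik* and *Gm26894* are annotated on the opposite strand over *Shh*. Genes are also annotated over every other component but *Sufu*, and on the same strand for *Ptch1*, *Boc*, *Smo* and *Gli3*. These are overlaps of whole gene spans, and overlaps of exons were not examined. The sources used here do not say whether counting used strand, and whether reads of such genes enter the values was not tested. In bulk samples, fewer cells of a type and less RNA per cell cannot be told apart, which holds for *Shh* and for every component below.

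*Ptch1* (chr13:63508328-63573598, minus strand), the receptor that holds Smo in check and a target of Gli factors, was lower on both days. With shRNA CON on day 5 it had 29.7, 24.9, 24.5 and 23.5 scaled TPM, and with shRNA RUS 15.2, 16.3, 15.7 and 22.0. On day 7 the values of *Ptch1* were 47.2, 48.7, 47.2 and 45.2 with shRNA CON and 33.1, 35.5, 33.7 and 31.7 with shRNA RUS. The groups did not overlap, but on day 5 replicate 4 of shRNA RUS lay near the lowest control. *Ptch1* fell by 0.57 on the log2 scale on day 5 (SE 0.123, adjusted p = 0.00659) and by 0.48 on day 7 (SE 0.0454, adjusted p = 2.18e-05). Without replicate 4 of shRNA RUS, the day 5 value of *Ptch1* was −0.69 (adjusted p = 3.99e-04).

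*Boc* (chr16:44485049-44558897, minus strand) encodes a co-receptor that binds Shh and promotes signaling. Its levels on day 5 overlapped, at 15.9, 15.8, 16.2 and 16.2 scaled TPM with shRNA CON and 15.8, 18.6, 20.3 and 19.9 with shRNA RUS. The log2 fold change of *Boc* on day 5 was 0.21 (adjusted p = 0.0759). It was called higher in 3 of 18 alternatives, with quantile normalization (0.26, adjusted p = 0.0314), in a fit to all 16 libraries (0.21, adjusted p = 0.0399) and without replicate 1 of shRNA RUS (0.29, adjusted p = 0.00686). On day 7 *Boc* had 12.7, 12.6, 13.2 and 11.5 scaled TPM with shRNA CON and 15.9, 18.5, 18.6 and 19.0 with shRNA RUS, so that all knockdown libraries were above all controls. It rose by 0.54 on the log2 scale (SE 0.0726, adjusted p = 2.04e-04).

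*Hhip* (chr8:79965851-80058006, minus strand) encodes a membrane protein that binds and withholds the ligand, and it was the lowest component in every group. The mean of normalized reads that the authors deposited was 38.6 for *Hhip* on day 5 and 48.0 on day 7. *Hhip* had 0.285, 0.223, 0.319 and 0.136 scaled TPM with shRNA CON on day 5 and 0.225, 0.257, 0.266 and 0.248 with shRNA RUS, with a log2 fold change of 0.07 (adjusted p = 0.870). On day 7 the values were 0.308, 0.312, 0.367 and 0.637 with shRNA CON and 0.120, 0.174, 0.164 and 0.146 with shRNA RUS. All knockdown libraries were below all controls, and replicate 4 of shRNA CON stood highest. The log2 fold change of *Hhip* on day 7 was −0.98 (SE 0.262, adjusted p = 0.0115), and −0.79 (adjusted p = 0.0300) without that library. Because 0.1 TPM was added before taking logs, fold changes of such low genes are understated, and with 1 TPM added the value was −0.30 (adjusted p = 0.0173).

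*Smo* (chr6:29735503-29761365, plus strand) encodes the transmembrane protein that carries the signal inward. It stood at 58.1, 54.0, 56.1 and 60.5 scaled TPM with shRNA CON on day 5 and at 71.0, 80.3, 78.7 and 72.0 with shRNA RUS. On day 7 *Smo* was at 61.5, 59.5, 60.8 and 53.5 with shRNA CON and at 78.9, 77.2, 79.0 and 76.4 with shRNA RUS. The knockdown libraries lay above the controls on both days by similar amounts. *Smo* rose by 0.40 on the log2 scale on day 5 (SE 0.0615, adjusted p = 0.00113) and by 0.42 on day 7 (SE 0.0491, adjusted p = 8.07e-05). With TPM as deposited, the day 5 value of *Smo* was 0.24 (adjusted p = 0.0220).

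*Sufu* (chr19:46396896-46488804, plus strand) encodes the cytoplasmic inhibitor that binds Gli proteins. On day 5 it had 11.6, 10.7, 10.8 and 10.9 scaled TPM with shRNA CON and 11.0, 12.4, 13.4 and 11.7 with shRNA RUS, and the groups overlapped (log2 fold change 0.14, adjusted p = 0.206, and 0.24, adjusted p = 0.0467, with quantile normalization). On day 7 *Sufu* was at 11.0, 11.0, 10.7 and 9.30 with shRNA CON and at 11.9, 13.7, 14.3 and 14.6 with shRNA RUS. The knockdown libraries were then all above the controls, by 0.39 on the log2 scale (SE 0.0849, adjusted p = 0.00388).

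The *Gli* genes encode zinc finger factors that share a DNA-binding domain but differ in activity, Gli1 being an activator, Gli2 mainly an activator and Gli3 mainly a repressor. *Gli1* (chr10:127329882-127341974, minus strand) had 1.48, 1.05, 1.35 and 1.00 scaled TPM with shRNA CON on day 5 and 0.391, 0.678, 0.520 and 0.604 with shRNA RUS. On day 7 *Gli1* had 1.68, 1.88, 1.78 and 1.64 with shRNA CON and 0.787, 1.27, 0.872 and 0.864 with shRNA RUS. Every knockdown library was below every control of its day. *Gli1* fell by 1.02 on the log2 scale on day 5 (SE 0.203, adjusted p = 0.00455), to 49.3% of the control level on the scale with 0.1 TPM added, and by 0.82 on day 7 (SE 0.159, adjusted p = 0.00190), to 56.5%. With 1 TPM added the values of *Gli1* were −0.49 (adjusted p = 0.00399) and −0.51 (adjusted p = 0.00163). The end of *Arhgap9* and the antisense gene *Gm47200* overlap the span of *Gli1* on the opposite strand. Whether their reads enter the values of *Gli1* was not tested.

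*Gli2* (chr1:118834132-119053619, minus strand) did not follow *Gli1*. On day 5 it had 6.05, 5.72, 5.91 and 4.89 scaled TPM with shRNA CON and 4.46, 5.10, 5.04 and 5.58 with shRNA RUS, overlapping groups with a log2 fold change of −0.16 (adjusted p = 0.274). On day 7 *Gli2* had 3.95, 4.47, 4.42 and 3.94 scaled TPM with shRNA CON and 8.75, 10.6, 10.5 and 10.3 with shRNA RUS. All knockdown libraries exceeded all controls. *Gli2* rose by 1.25 on the log2 scale on day 7 (SE 0.0850, adjusted p = 2.75e-06), to 238% of the control level.

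*Gli3* (chr13:15463235-15730026, plus strand) did not pass the test on either day. Its levels were 8.73, 8.54, 8.36 and 8.05 scaled TPM with shRNA CON on day 5 and 6.20, 6.88, 6.67 and 9.12 with shRNA RUS, where replicate 4 was above all controls and the other libraries were below them. The log2 fold change of *Gli3* was −0.23 (SE 0.115, adjusted p = 0.156), and −0.35 (adjusted p = 0.00611) without replicate 4 of shRNA RUS. On day 7 *Gli3* had 10.3, 10.3, 11.7 and 10.9 scaled TPM with shRNA CON and 10.9, 12.4, 12.9 and 12.4 with shRNA RUS, and the log2 fold change was 0.18 (SE 0.0697, adjusted p = 0.0575). *Gli3* was called higher on day 7 in 4 of 18 alternatives, with quantile normalization (0.19, adjusted p = 0.0458), with a filter at 1 TPM (0.18, adjusted p = 0.0410), without replicate 3 of shRNA CON (0.22, adjusted p = 0.0354) and without replicate 1 of shRNA RUS (0.23, adjusted p = 0.0133).

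**Figure D2:**
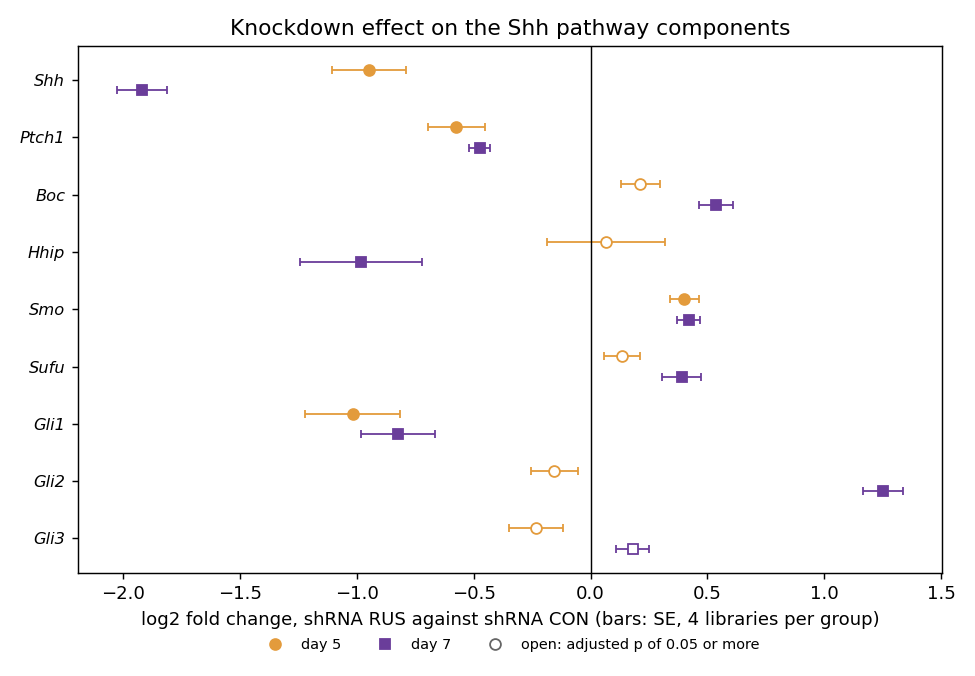
Log2 fold change of shRNA RUS against shRNA CON (x axis) for each component (y axis) on day 5 (circles) and day 7 (squares), with the SE (4 libraries per group). Filled symbols passed an adjusted p of 0.05. *Shh* lies at −0.95 and −1.92, *Gli2* at −0.16 and 1.25, and *Smo* at 0.40 and 0.42.

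The makeup of the *Gli* transcripts differed accordingly. Of the summed TPM of the *Gli* genes, *Gli1* made up 7.95% ± 1.1 (SD, n = 4) with shRNA CON and 4.27% ± 0.78 with shRNA RUS on day 5, and 10.4% ± 0.63 and 4.09% ± 0.77 on day 7. The share of *Gli2* was 36.9% ± 1.2 with shRNA CON and 39.6% ± 2.1 with shRNA RUS on day 5, and 25.0% ± 1.2 and 43.3% ± 0.42 on day 7. *Gli3* held the largest share in every group, from 52.6% ± 0.97 with shRNA RUS to 64.5% ± 1.8 with shRNA CON on day 7. These shares come from the levels given above and were not tested on their own.

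**Figure D3:**
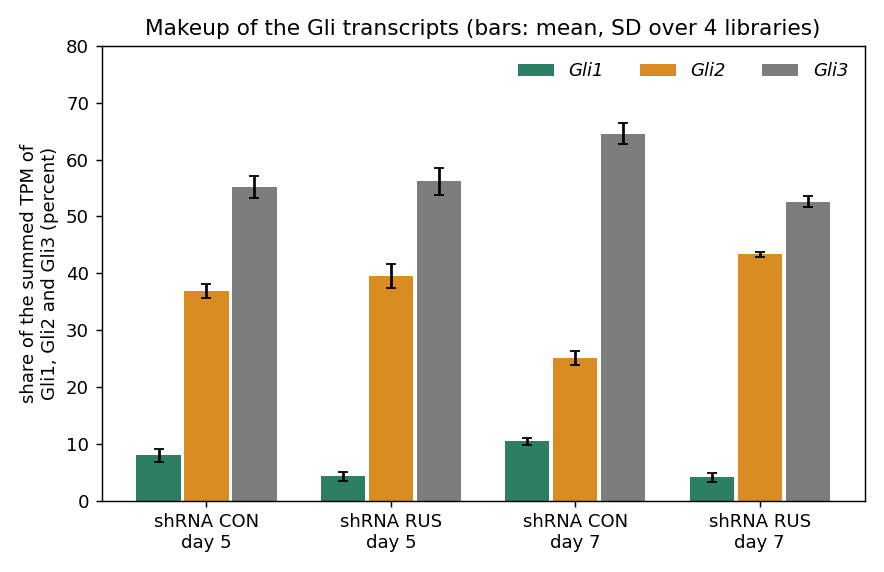
Share of the summed TPM of *Gli1*, *Gli2* and *Gli3* (y axis, percent) held by each gene in the 4 groups (x axis). Bars are means and error bars the SD over 4 libraries. *Gli2* takes 25.0% with shRNA CON and 43.3% with shRNA RUS on day 7.

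To see how the components behaved as differentiation began, day 7 was compared with day 5 under each shRNA, in a fit to all 16 libraries. With shRNA CON, *Shh*, *Ptch1*, *Gli1* and *Gli3* rose and *Boc* and *Gli2* fell. These are 4 of 9 components higher, where 26.9% of all genes were called higher, and 2 lower, where 21.6% were called lower. With shRNA RUS, *Shh*, *Ptch1*, *Gli1*, *Gli2* and *Gli3* rose, 5 of 9 beside 35% of all genes called higher, and no component passed the test downward, beside 25.8% of all genes called lower. That count of 0 by limma was 0 without the adjustment too, and it was 1 with quantile normalization and without the trend of the variance, *Hhip* in each case. The days did not overlap for 6 of the 9 components with shRNA CON, against 46.9% of all genes, nor for 6 with shRNA RUS, against 52.5%.

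*Shh* rose 4.62-fold with shRNA CON (log2 fold change 2.21, SE 0.127, adjusted p = 1.27e-09) and 2.35-fold with shRNA RUS (1.23, adjusted p = 4.81e-07). *Ptch1* rose by similar amounts under both shRNAs, by 0.88 with shRNA CON (SE 0.0980, adjusted p = 2.14e-06) and by 0.97 with shRNA RUS (adjusted p = 4.06e-07) on the log2 scale. *Gli1* rose by 0.50 with shRNA CON (SE 0.178, adjusted p = 0.0304) and by 0.69 with shRNA RUS (adjusted p = 0.00311). The first of these values of *Gli1* was no longer called in 6 of 25 alternatives, and the second in 1, quantile normalization (0.35, adjusted p = 0.0952). With 1 TPM added they were 0.31 (adjusted p = 0.0111) and 0.33 (adjusted p = 0.00598), and the value of *Shh* with shRNA RUS was 0.75 (adjusted p = 1.30e-06). *Gli3* rose by 0.36 with shRNA CON (SE 0.0966, adjusted p = 0.00621) and by 0.76 with shRNA RUS (adjusted p = 4.98e-06).

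*Gli2* went opposite ways, with a log2 fold change of −0.42 with shRNA CON (SE 0.0911, adjusted p = 0.00128), or −0.27 with TPM as deposited, and of 0.98 with shRNA RUS (adjusted p = 1.58e-07). *Boc* fell by 0.36 on the log2 scale with shRNA CON (SE 0.0766, adjusted p = 0.00104) and stood at −0.05 with shRNA RUS (adjusted p = 0.612). With TPM as deposited the former value of *Boc* was −0.21 (adjusted p = 0.0683) and the latter 0.27 (adjusted p = 0.0150). *Smo* and *Sufu* did not pass the test between days, with log2 fold changes of 0.04 and −0.07 with shRNA CON and of 0.05 and 0.17 with shRNA RUS. With shRNA RUS, *Smo* was called higher in 3 of 25 alternatives (up to 0.37, adjusted p = 4.97e-05, with TPM as deposited) and *Sufu* in 4 (up to 0.49, adjusted p = 1.71e-04, with the same values). With shRNA CON, *Smo* was called higher in 1 alternative, TPM as deposited (0.19, adjusted p = 0.0143). *Hhip* was at 0.56 with shRNA CON (SE 0.234, adjusted p = 0.0603) and at −0.48 with shRNA RUS (adjusted p = 0.0890), and was called in 4 and 2 of 24 alternatives.

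**Figure D4:**
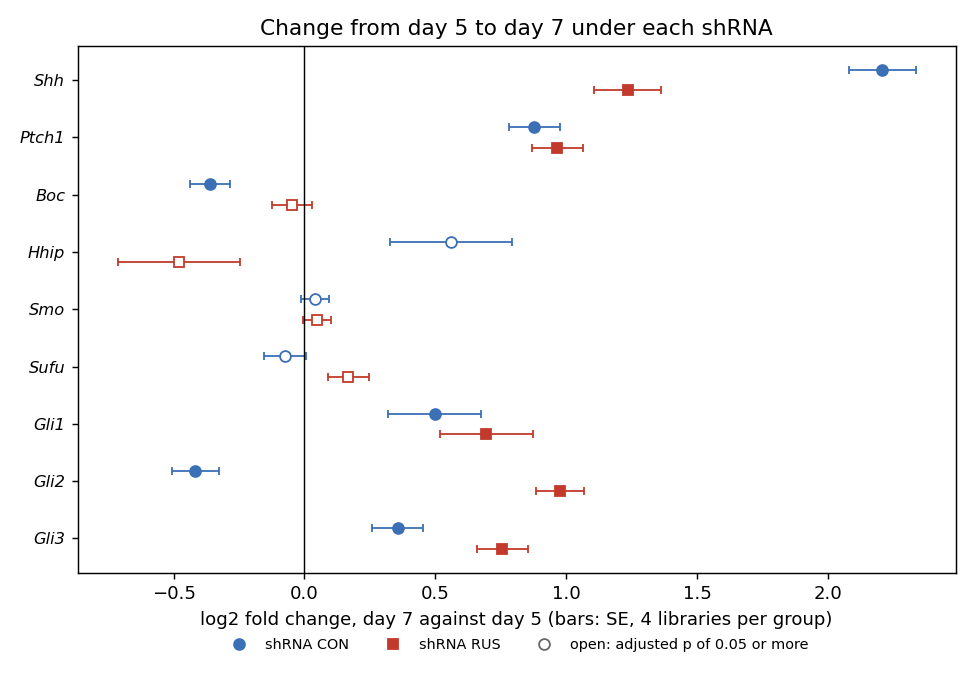
Log2 fold change of day 7 against day 5 (x axis) for each component (y axis) with shRNA CON (circles) and shRNA RUS (squares), with the SE (4 libraries per group). Filled symbols passed an adjusted p of 0.05. *Gli2* lies at −0.42 with shRNA CON and at 0.98 with shRNA RUS, and *Shh* at 2.21 and 1.23.

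Whether the knockdown acted differently on the 2 days was tested as an interaction of shRNA and day. The effect on *Gli2*, *Gli3* and *Boc* was more positive on day 7, 3 of 9 components beside 15.2% of all genes, and the effect on *Shh* and *Hhip* more negative, 2 of 9 beside 14.6% of all genes. The difference was 1.39 on the log2 scale for *Gli2* (SE 0.129, adjusted p = 4.24e-06) and −0.97 for *Shh* (SE 0.180, adjusted p = 9.51e-04). It was −1.04 for *Hhip* (SE 0.331, adjusted p = 0.0271), 0.40 for *Gli3* (SE 0.137, adjusted p = 0.0372) and 0.31 for *Boc* (SE 0.108, adjusted p = 0.0407). The calls for *Boc* and *Gli3* were each lost in 14 of 25 alternatives, and that for *Hhip* in 2 of 24, without replicate 4 of shRNA CON on day 5 (−0.87, adjusted p = 0.0532) and without replicate 4 of shRNA CON on day 7 (−0.84, adjusted p = 0.0533). With 1 TPM added the difference for *Hhip* was −0.29 (adjusted p = 0.0353), and with TPM as deposited that for *Boc* was 0.48 (adjusted p = 0.00973). For *Ptch1*, *Gli1*, *Sufu* and *Smo* the differences were 0.09, 0.20, 0.24 and 0.01, with adjusted p of 0.677, 0.601, 0.118 and 0.965. That for *Sufu* was called in 2 of 25 alternatives. These were TPM as deposited (0.41, adjusted p = 0.0209) and the fit without replicate 1 of shRNA RUS on day 7 (0.31, adjusted p = 0.0388).

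Among 49 other genes of the hedgehog pathway, 46 were tested on each day. On day 5, 8 were higher and 13 lower, and on day 7, 17 were higher and 18 lower, beside 14.8% and 17.9% of all genes on day 5 and 23.4% and 25.8% on day 7. The median log2 fold change of those tested was −0.07 on both days, and that of all genes −0.06 and −0.03. The other ligand genes, *Ihh* and *Dhh*, did not pass the test for the knockdown on either day, with log2 fold changes between −0.19 and 0.44. *Dhh* fell from day 5 to day 7 under both shRNAs, by 2.62 with shRNA CON (adjusted p = 2.07e-09) and by 2.95 with shRNA RUS (adjusted p = 3.89e-10) on the log2 scale, while *Shh* rose.

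Of 5 genes for lipid attachment and release of the ligand, *Scube1*, whose secreted product helps to shed hedgehog proteins, rose by 1.54 on day 5 (SE 0.133, adjusted p = 5.91e-05) and by 1.29 on day 7 (SE 0.144, adjusted p = 6.24e-05) on the log2 scale. *Scube3* rose on day 7 (0.96, adjusted p = 5.73e-06), and *Disp1*, which encodes the transporter that releases Shh, fell on day 5 (−0.44, adjusted p = 0.00432) and was at 0.01 on day 7. *Hhat* did not pass the test on either day, and *Scube2*, too low to be tested on day 5, did not pass it on day 7 (−0.10, adjusted p = 0.809). Of 4 genes for co-receptors, *Cdon*, a relative of *Boc*, fell on day 5 (−0.62, adjusted p = 0.00142), and *Gas1* rose on day 7 (0.46, adjusted p = 0.00176). *Lrp2* fell on both days (−0.63, adjusted p = 0.0113, and −0.35, adjusted p = 0.00232). *Gpc3* fell on day 7 (−1.12, adjusted p = 3.10e-05).

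Of 13 genes for the cilium and the handling of Smo, 2 were higher (beside 14.8% of all genes) and 4 lower (17.9%) on day 5, and 6 were higher (23.4%) and 6 lower (25.8%) on day 7. *Ift88*, needed to build the cilium, fell by 0.90 on day 5 (SE 0.0915, adjusted p = 1.27e-04) and by 0.88 on day 7 (SE 0.102, adjusted p = 7.21e-05) on the log2 scale. *Arl13b*, a GTPase of the ciliary membrane, fell by 0.65 (adjusted p = 0.00214) and 0.69 (adjusted p = 2.20e-04). The largest increases in this list on day 7 were those of *Grk2*, which encodes a kinase that phosphorylates Smo (0.40, adjusted p = 7.16e-04), and of *Evc2* at the base of the cilium (0.39, adjusted p = 1.68e-04). Of 13 genes for the processing of Gli proteins, 4 were higher (14.8% of all genes) and 1 lower (17.9%) on day 5, and 7 were higher (23.4%) and 3 lower (25.8%) on day 7. *Prkacb*, a catalytic subunit of protein kinase A (0.53, adjusted p = 1.72e-05), and *Numb* (0.42, adjusted p = 9.37e-05) rose most on day 7. *Stk36* (−0.36, adjusted p = 0.0112) and *Spop*, an adaptor for Gli degradation (−0.19, adjusted p = 0.0259), fell most. *Fbxl17*, which targets Sufu for degradation, was at −0.36 on day 5 (adjusted p = 0.0895) and at −0.19 on day 7 (adjusted p = 0.213).

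Of 12 genes known to rise with Gli activity, 10 could be tested on day 5 and 9 on day 7. On day 5, 1 was higher (beside 14.8% of all genes) and 5 were lower (17.9%), and on day 7, 1 was higher (23.4%) and 7 were lower (25.8%). The median log2 fold change of those tested was −0.67 and −0.74, and that of all genes −0.06 and −0.03. *Ccnd1*, which encodes cyclin D1, had 294.5 to 356 scaled TPM with shRNA CON on day 5 and 131 to 144 with shRNA RUS, and 110.1 to 119 and 46.0 to 53.8 on day 7. It fell by 1.25 (SE 0.0635, adjusted p = 1.06e-05) and by 1.18 (SE 0.0547, adjusted p = 3.33e-07) on the log2 scale, without overlap between groups. *Nkx2-2*, a ventral patterning gene, fell by 1.26 on day 7 (SE 0.128, adjusted p = 3.16e-05). *Sfrp1* was the gene called higher, at 0.33 on day 5 (adjusted p = 5.63e-04) and 0.21 on day 7 (adjusted p = 3.88e-04).

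**Figure D5:**
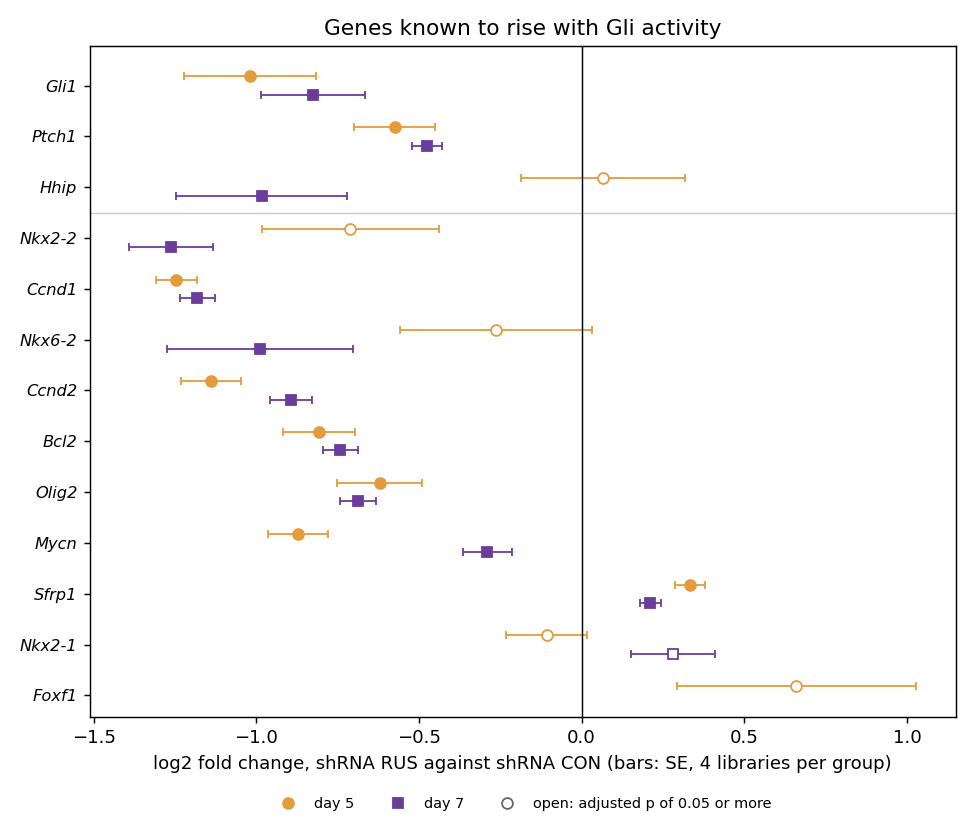
Log2 fold change of shRNA RUS against shRNA CON (x axis) on day 5 (circles) and day 7 (squares), with the SE (4 libraries per group), for *Gli1*, *Ptch1* and *Hhip* (above the line) and for the other tested genes known to rise with Gli activity (below it, in order of the day 7 value). Filled symbols passed an adjusted p of 0.05. Most genes lie left of 0, with *Nkx2-2* at −1.26 and *Ccnd1* at −1.18 on day 7, and *Sfrp1* (0.33 and 0.21), *Nkx2-1* on day 7 (0.28) and *Foxf1* (0.66) and *Hhip* (0.07) on day 5 lie to the right, the last 3 without passing the test.

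Several of these genes, the cyclin genes among them, also follow cell division, and markers of dividing cells moved in the same direction. All 5 markers (*Mki67*, *Top2a*, *Pcna*, *Ccnb1*, *Cdk1*) fell on both days, beside 17.9% of all genes called lower on day 5 and 25.8% on day 7. Their sum ranged from 614 to 643 scaled TPM with shRNA CON and from 347 to 392 with shRNA RUS on day 5. On day 7 it ranged from 636 to 651 with shRNA CON and from 247 to 279 with shRNA RUS. Of 6 markers of the oligodendrocyte lineage, 4 fell on day 5 (17.9% of all genes) and 5 on day 7 (25.8%), with sums of 243 to 325 and 163 to 251 scaled TPM on day 5 and of 343 to 384 and 237 to 257 on day 7, controls first. *Olig2* is counted both in this list and among the genes known to rise with Gli activity.

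Beside the counts of markers of other cell types stand the shares of all genes called, 14.8% higher and 17.9% lower on day 5 and 23.4% higher and 25.8% lower on day 7. Of 6 microglia markers, 2 fell on day 5 and 6 on day 7. Their sum was 77.7 to 82.8 scaled TPM with shRNA CON and 66.7 to 84.7 with shRNA RUS on day 5, and 181 to 193 and 76.2 to 97.6 on day 7. Of 6 interneuron markers, 4 fell on day 5 and 3 rose on day 7, with sums of 167 to 206 and 141 to 171 on day 5 and of 243 to 261 and 268 to 310 on day 7, controls first. Of 6 astrocyte markers, 2 rose on day 5 and 3 on day 7, when 1 fell, with sums of 4401 to 4611 and 5946 to 6330 on day 5 and of 2538 to 2611 and 3214 to 3355 on day 7. Most of this sum on day 5 is *Gfap* and *Aldoc*, which rose, with means of 1848 and 1327 scaled TPM with shRNA CON and of 2791 and 1971 with shRNA RUS. The other astrocyte markers did not pass the test on day 5. *C1qa* held the largest part of the microglia sum in each group, and *Olig1* that of the oligodendrocyte lineage. Of 7 neuron markers, 2 rose and 2 fell on day 5, and 3 rose and 2 fell on day 7, with sums of 485 to 554 and 498 to 560.4 on day 5 and of 708 to 788 and 659 to 784 on day 7. Of 4 markers of fibroblasts and meninges, *Lum* was too low to be tested, *Dcn* did not pass the test, *Pdgfrb* rose on both days (0.32, adjusted p = 0.0303, and 1.32, adjusted p = 2.44e-07) and *Col1a1* rose on day 7 (1.23, adjusted p = 0.00328). Their sum was 16.6 to 18.6 scaled TPM with shRNA CON and 17.3 to 23.5 with shRNA RUS on day 5, and 11.2 to 12.2 and 26.6 to 29.5 on day 7. The part of these cell types and of cell division in the values of the components was not tested.

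For *Shh*, *Gli1* and *Ptch1*, the genes with the most similar profile were sought among the 15899 genes that averaged 1 TPM or more. Likeness was measured as the root mean square difference of the log2 values over the 16 libraries, each gene centred on its own mean. Closest to *Shh* were *Tmem252* (0.218), *Spag6l* (0.242), *Pgm5* (0.254), *Megf11* (0.254) and *Ccbe1* (0.257). Closest to *Gli1* were *Siah3* (0.184), *Tnc* (0.189), *Bcl2* (0.201), *Tmem260* (0.209) and *Rad54b* (0.210). Closest to *Ptch1* were *Slc8a1* (0.0818), *Zfp518b* (0.09998), *Syne1* (0.1001), *Dgke* (0.109) and *Thbs1* (0.109). The difference also grows with the spread of a gene between libraries, so its size cannot be compared between *Shh*, *Gli1* and *Ptch1*. All of these genes were higher on day 7 than on day 5 and lower with shRNA RUS on each day in their centred group means. *Shh*, *Gli1* and *Ptch1* show this pattern too, so it follows from choosing genes by likeness to them. *Bcl2* is also in the list of genes known to rise with Gli activity.

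Promoter sequence was available for 6 of the 9 components (*Gli2*, *Gli3*, *Hhip*, *Ptch1*, *Smo* and *Sufu*), as windows of 250 bases before to 50 bases after a RefSeq start on GRCm38.p6. Neither GACCACCCA, the consensus bound by Gli factors, nor its core CCACCCA was present on either strand in any of these windows, while 0.253% and 9.3% of all 32851 windows hold them. Every match to the consensus is also a match to the core. With at most 1 mismatch to the consensus there was still no match in the 6 windows, against 6.74% of all windows. The letters GGGCGG (a GC box, either strand) occurred in 5 of the 6 windows, all but that of *Smo*, against 35.7% of all windows. The GC content of the 6 windows was 56.3% to 76.3%, with a median of 52.7% over all windows. Absence of a match says only that these letters are not in the window. The 250 bases before the start are shown for the target genes *Ptch1* and *Hhip*, which fell on day 7, and for *Gli2*, which rose on day 7. Each is given 5′ to 3′ on the strand of the gene with GC boxes in capitals. The *Ptch1* window, chr13:63565736-63565985, lies within the annotated gene, upstream of an internal start, that of *Hhip* is chr8:80058009-80058258 and that of *Gli2* chr1:119053620-119053869, all on the minus strand.
Ptch1: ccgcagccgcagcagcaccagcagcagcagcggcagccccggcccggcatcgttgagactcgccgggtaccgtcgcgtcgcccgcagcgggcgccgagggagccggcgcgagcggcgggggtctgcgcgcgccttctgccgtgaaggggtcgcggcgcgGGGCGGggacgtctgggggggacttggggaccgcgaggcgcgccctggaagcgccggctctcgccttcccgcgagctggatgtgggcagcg
Hhip: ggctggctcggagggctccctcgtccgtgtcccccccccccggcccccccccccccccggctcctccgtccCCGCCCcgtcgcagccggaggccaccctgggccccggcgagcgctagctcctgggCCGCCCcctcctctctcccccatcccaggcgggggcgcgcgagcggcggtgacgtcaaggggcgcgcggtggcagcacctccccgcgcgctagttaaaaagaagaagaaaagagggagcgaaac
Gli2: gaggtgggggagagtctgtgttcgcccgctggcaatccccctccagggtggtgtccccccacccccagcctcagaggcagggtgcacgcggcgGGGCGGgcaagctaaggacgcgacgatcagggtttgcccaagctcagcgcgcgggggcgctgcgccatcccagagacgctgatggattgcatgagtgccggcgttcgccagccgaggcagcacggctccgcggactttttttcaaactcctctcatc
In these letters *Hhip* holds 2 GC boxes, and *Ptch1* and *Gli2* hold 1 each.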

How the data were processed

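RNA-seq of polyA RNA from NSC, 4 libraries for each shRNA and day, was analysed from a table for each day. The authors aligned reads with STAR to mm10 (GRCm38), quantified them with RSEM and deposited TPM per gene and library, with the mean of normalized reads over the libraries of a day (the base mean, a signal without error). Versions are not given in the sources used here. The tables also hold the log2 fold changes, test scores and p-values of the authors' own comparison by DESeq2, which were not used. The files hold no counts, so the depth is unknown, and no detection limit is given. The sum of TPM per library was 999999.3 to 1000000.7.

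TPM were scaled by the median ratio over genes of at least 1 TPM in every library. Levels come from a scaling over the 16 libraries, and the knockdown effect of each day from the 8 libraries of that day, scaled within the day. Genes that averaged 0.1 TPM or more were fitted as log2(scaled TPM + 0.1) with limma 3.58.1 (R 4.3.3; lmFit, then eBayes allowing a trend). Tests were two-sided and adjusted after Benjamini-Hochberg over all genes tested (22581 on day 5, 24606 on day 7, 23789 between days) and a threshold of 0.05. Fold changes are on this log2 scale and understate those of low genes. A total of 106 lines that differ in name between the tables were left out of the fits to 16 libraries. The code was tested on simulated data.

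The study ran its comparison per day, and this design was kept. The 9 components, the lists of other genes and the markers were chosen with earlier results of these data known. One listed gene is not reported here and is in no list count. All components are named. Hedgehog lists of at most 5 genes are named whole, and from longer ones the 2 largest called changes in each direction on day 7, with *Fbxl17*. Marker lists are given by counts and sums, and markers named singly were chosen after their values were seen. For *Shh*, *Gli1* and *Ptch1* the 5 nearest profiles are named. No libraries were identical, and correlations between libraries were 0.896 to 0.981. Promoter windows were searched with Python 3.11.15, and gene positions are those of GENCODE vM21. The alternatives tried were other scalings, pseudocounts and filters, eBayes without its trend, a block for the replicate number, a joint fit and leaving out each library.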

Additional observations from a re-analysis of the deposited data

Results flagged for a closer look

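In the 36 groups of 4 libraries (9 components in 4 groups), 2 held a library whose gap to the nearest other exceeded the critical value of Dixon's test, which chance gives in about 1 in 20 groups. Both are replicate 1 of shRNA RUS on day 7, with *Boc* at 15.9 scaled TPM against 18.5 to 19.0 in the other libraries and *Gli2* at 8.75 against 10.3 to 10.6. Each was still above all controls of day 7.

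The knockdown effect differed between the days, by the interaction of shRNA and day, for *Gli2* (1.39 on the log2 scale), *Shh* (−0.97), *Hhip* (−1.04), *Gli3* (0.40) and *Boc* (0.31).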

How the results depend on the processing

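Of 993 values of the components under alternatives, 916 kept their direction and their side of the threshold, 38 lost the call, 25 gained one and 14 changed sign. The knockdown calls of *Shh*, *Ptch1*, *Gli1* and *Smo* on both days and of *Gli2*, *Boc*, *Hhip* and *Sufu* on day 7 held under every alternative in which the gene was tested. With TPM as deposited, the median over all genes of the log2 fold change moved to −0.21 for the knockdown on day 5, 0.20 and 0.41 between days with shRNA CON and shRNA RUS, and 0.19 for the difference. The calls higher and lower were then 1768 and 6037 (3349 and 4034 after scaling), 8573 and 3434 (6394 and 5133), 11801 and 3545 (8317 and 6135), and 5700 and 2053 (3626 and 3464). With the 75th percentile they were 2418 and 4859 for the knockdown on day 5. With TPM as deposited, 1 component was lower between days with shRNA CON and 8 were higher with shRNA RUS. Of all 23789 genes tested, 3434 and 11801 were called in the same comparisons and directions. Between days with shRNA RUS 1 component was lower with quantile normalization and without a trend, beside 6782 and 6076 of all genes. For the knockdown on day 5, 3 components were higher with quantile normalization and 2 in a fit to all 16 libraries. Beside them, 3326 and 3953 of all genes were called higher. For the difference, 1 component was lower with a filter at 1 TPM, where *Hhip* is not tested, and 1 was higher without a filter, where more genes are tested. Of all genes, 3422 were lower with that filter and 3213 higher without a filter. The cause of the other shifts was not tested.

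Same-numbered libraries deviated with correlations of −0.226 to 0.110, so that the numbers were not taken as pairs. With the replicate block, 2231 genes were higher on day 5 and the counts of components called were the same in each comparison. Leaving out 1 library gave 1 to 2 components higher for the knockdown on day 5 (2 without replicate 1 of shRNA RUS). With no library left out, 14.8% of all genes were higher. For the difference it gave at least 1 higher and 1 to 2 lower, beside 15.2% and 14.6% of all genes with no library left out. The 1 higher was *Gli2*, when leaving out replicate 1, 2 or 3 of shRNA CON or 1 or 2 of shRNA RUS on day 5, or 1, 2 or 4 of shRNA CON or 2, 3 or 4 of shRNA RUS on day 7. The 1 lower was *Shh*, without replicate 4 of shRNA CON on either day. Without replicate 1 of shRNA RUS on day 7, *Sufu* was called higher for the difference (0.31, adjusted p = 0.0388), beside *Gli2*, *Gli3* and *Boc*.

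Changes of sign came in values that did not pass the test, but for 1. With TPM as deposited, *Hhip* and *Sufu* on day 5 were at −0.0435 and −0.0216, *Sufu* between days with shRNA CON at 0.0759 and *Boc* with shRNA RUS at 0.27, which passed. This value of *Boc* was 0.0572 with the 75th percentile and −0.127 to 0.0112 without single libraries, above 0 without replicate 1 of shRNA RUS on day 7. Without single libraries, the day 5 value of *Hhip* lay between −0.0939 (replicate 4 of shRNA CON left out) and 0.17. The difference for *Ptch1* was −0.0188 with quantile normalization, and that for *Smo* ranged from −0.0413 to 0.0355 without single libraries.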
